A study of Rattus norvegicus with 5 samples.

Results

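Amino acid transporters were followed in Fao rat hepatoma cells over the first hour of insulin. They were taken as the non-control spots whose gene name on the array starts with Slc1a, Slc3a, Slc6a, Slc7a, Slc36a, Slc38a or Slc43a, whether or not the name carries the suffix for a predicted gene. This gave 80 of 43379 spots, which are 62 of 41012 probes and 50 of 35658 genes. Fao cells come from a rat liver tumour and retain liver traits such as albumin secretion. Every sample was starved for 16 h in medium holding the glucocorticoid dexamethasone at 10 nM, and insulin at 10 nM followed for 0, 15, 30, 45 or 60 min. Each time is 1 sample on 1 Agilent 1-colour array, so no p-value belongs to a difference between 2 times, and cultures left without insulin over the hour are not part of the comparison.

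Amino acids enter and leave cells through carriers of several families. System A carriers of the Slc38a family take up small neutral amino acids together with sodium, and insulin is known to raise this uptake in hepatocytes. The exchangers of the Slc7a family are light chains that need a heavy chain of the Slc3a family to reach the cell surface, and they swap one amino acid for another, so that glutamine can leave as leucine enters and feeds the growth kinase mTORC1. When amino acids run short, the transcription factor ATF4 raises several of these genes in mammalian cells, among them Slc3a2, Slc7a1, Slc7a5, Slc7a11, Slc6a9 and Slc38a2. The gene names cover more than amino acids: Slc6a2, Slc6a3 and Slc6a4 carry noradrenaline, dopamine and serotonin, Slc6a8 carries creatine, and Slc43a3 carries purine bases.

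The 250 bases before the RefSeq start of 4 genes are shown because they are known ATF4 targets that were lowest at 15 or 30 min or highest at 45 min, as described below. They were thus chosen after their values were seen. Of the targets named above, Slc38a2, lowest at 60 min, and Slc7a11, well above background on 2 arrays alone, are not shown. The windows are on build GRCr8, are read 5′ to 3′ on the strand of the gene, and come from RefSeq. Capitals mark matches on either strand to the C/EBP-ATF response element TGATGNAA, the site bound by ATF4 with a C/EBP partner, or to the cyclic AMP response element TGACGTCA.
Slc3a2, chr1:215048065-215048314, minus strand: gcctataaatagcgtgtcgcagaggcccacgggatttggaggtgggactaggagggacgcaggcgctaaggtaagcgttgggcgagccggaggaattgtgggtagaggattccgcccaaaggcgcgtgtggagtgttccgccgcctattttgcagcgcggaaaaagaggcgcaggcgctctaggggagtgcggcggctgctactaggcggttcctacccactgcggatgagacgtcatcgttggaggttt
Slc6a9, chr5:136659826-136660075, plus strand: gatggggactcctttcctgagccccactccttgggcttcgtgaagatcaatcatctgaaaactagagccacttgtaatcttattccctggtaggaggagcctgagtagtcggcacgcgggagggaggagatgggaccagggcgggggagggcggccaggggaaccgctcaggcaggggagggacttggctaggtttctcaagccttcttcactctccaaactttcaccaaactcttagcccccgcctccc
Slc7a1, chr12:11664238-11664487, plus strand: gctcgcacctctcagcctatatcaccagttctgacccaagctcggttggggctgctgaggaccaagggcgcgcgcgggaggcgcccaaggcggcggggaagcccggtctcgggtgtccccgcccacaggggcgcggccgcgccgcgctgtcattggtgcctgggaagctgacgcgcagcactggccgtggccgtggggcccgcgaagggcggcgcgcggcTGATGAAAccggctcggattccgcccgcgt
Slc7a5, chr19:66872413-66872662, minus strand: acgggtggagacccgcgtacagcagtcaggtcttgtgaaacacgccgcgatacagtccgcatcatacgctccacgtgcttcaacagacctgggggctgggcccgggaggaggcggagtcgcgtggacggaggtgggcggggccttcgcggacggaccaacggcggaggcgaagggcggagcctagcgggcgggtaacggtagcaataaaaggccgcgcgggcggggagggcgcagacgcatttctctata
Slc7a1 alone of these 4 windows held a match, TGATGAAA, which begins 30 bases before the start. The first motif was found in 3.27% of 27457 such windows in the RefSeq table and in those of 3 members (Slc1a4, Slc38a1 and Slc7a1) among the 37 with an entry. The second was found in 1.70% of all windows and in that of Slc38a6. The 2 motifs were not found overlapping in a member's window. A match describes these letters only, and their use was not measured.

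All 15 hepatocyte markers on the array, albumin and transthyretin among them, were well above background on all 5 arrays. Of 13 markers of macrophages, lymphocytes, endothelium, stellate and biliary cells, 4 were so on all 5 and 6 on none. Between 50.9% and 56.5% of the non-control spots were well above background on an array and none was saturated. The arrays of 0 to 45 min shared a slide. The 60 min array lay on the other slide, with a 75th percentile of signal of 480.3 against 253.6 to 299.9 on the others, so slide and time cannot be told apart at 60 min. Levels below are log2 ratios of a probe's processed signal to its array's 75th percentile, each gene is given by its brightest probe, and a change is the level at a time minus the level at 0 min. On this scale 8 control transcripts added to the samples were 0.14 to 0.23 higher at 15 to 60 min than at 0 min. Among probes printed at 8 or more spots, the scatter of spots corresponds to an SD of 0.18 to 0.20 for a change. It covers spot noise only and no difference between cultures.

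Fao cells had signal for 29 of the 50 transporter genes. Of the 50, 21 were well above background on all 5 arrays, 8 on some and 21 on none, so 42% were on all 5 and 42% on none, against 46.8% and 42.4% of all genes. Both heavy chains were on all 5 arrays, as were 4 of 7 Slc1a genes, 3 of 8 light chains, 2 of 4 cationic carriers, 3 of 6 Slc38a genes, 2 of 3 Slc43a genes and 5 of 16 Slc6a genes. None of the 4 Slc36a genes, proton-coupled carriers of small amino acids, was well above background on any array.

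Of 12 pairs of members whose probes lie within 500 kb of each other on rn4, the assembly of the array design, 7 differed in the number of arrays that detected them and 5 were on no array. No such count was made for other gene pairs, and some members stand in several of these pairs. Slc38a2, the system A carrier SNAT2, was on all 5 arrays, whereas Slc38a1 and Slc38a4, whose probes lie 111.0 and 327.4 kb from it on chromosome 7, were on none. Slc38a4 codes for the system A carrier SNAT4, which is known from liver. Slc6a12, a betaine and GABA carrier, was on all 5 and its neighbour Slc6a13 on none, with the probes 23.9 kb apart on chromosome 4. Slc43a1, the leucine facilitator LAT3, was on all 5 and Slc43a3 on none, 76.2 kb away on chromosome 3. Slc7a7, the light chain y+LAT1, was on all 5 and Slc7a8, the light chain LAT2, on none, 365.4 kb away on chromosome 15. A gene on no array may still be expressed below what its probe can show.

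**Figure D1:**
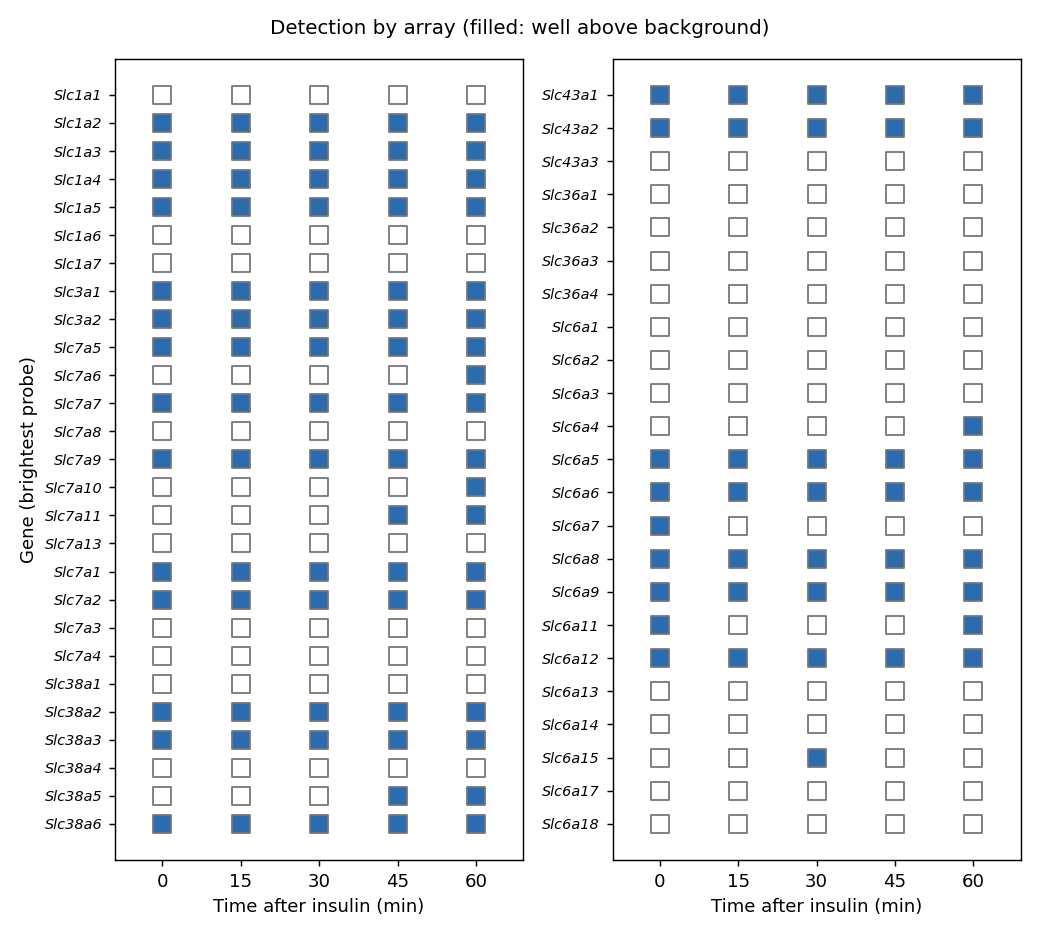
Each square is 1 gene (rows, by family) on the array of 1 time after insulin in minutes (columns), filled where the brightest probe was well above background. Of 50 genes, 21 are filled on all 5 arrays, 8 on some and 21 on none.

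As a group the transporters stayed close to their 0 min level. The median change of the members measured on both arrays was −0.04 at 15 min (21 genes), 0.00 at 30 min (21), 0.09 at 45 min (21) and 0.04 at 60 min (22), against 0.03, 0.02, 0.02 and 0.02 over all genes so measured. Above their 0 min level lay 8 of 21 members at 15 min, 11 at 30 min, 12 at 45 min and 11 of 22 at 60 min, against 57.9%, 55.0%, 54.8% and 51.9% of all genes. The members' own spread was an SD of 0.25, 0.27, 0.23 and 0.20 at these times, against 0.23, 0.24, 0.25 and 0.34 over all genes.

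Of the members well above background on both arrays of a comparison, few differed from 0 min by 1.5-fold, which is 0.585 in log2; genes seen on 1 of the 2 arrays have bounds instead, given further on. Among those on both, Slc6a9 was the only member so much lower, at 15 and at 30 min, where 0.921% and 0.945% of all genes were, and none was so much higher there, against 1.08% and 1.14% of all genes. Slc7a5 was the only member so much higher, at 45 min, where 1.7% of all genes were higher and 1.09% lower. At 60 min none of 22 members differed by 1.5-fold, against 3.41% of all genes higher and 3.82% lower. No member on both arrays differed by 2-fold at any time, against 0.388%, 0.443%, 0.604% and 1.34% of all genes at 15, 30, 45 and 60 min.

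**Figure D2:**
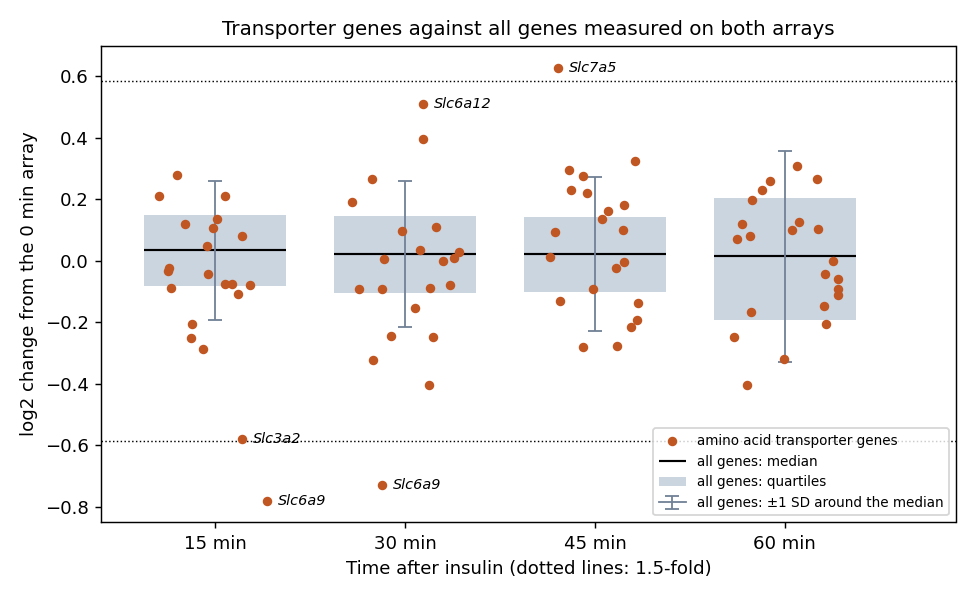
Points are the log2 changes from the 0 min array of transporter genes measured on both arrays, and boxes, lines and bars give the quartiles, median and SD of all genes (1 array per time). Slc6a9 lies below the dotted 1.5-fold line at 15 and 30 min, Slc7a5 above it at 45 min, and no transporter beyond it at 60 min.

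The heavy chains were taken first. Slc3a2 codes for the heavy chain CD98, the partner of LAT1, y+LAT1 and xCT. Its levels were 4.35, 3.77, 3.94, 4.25 and 4.24 at 0, 15, 30, 45 and 60 min (probe on chromosome 1, 211376528 to 211376587, minus strand). It was lowest at 15 min, at −0.581, just inside the 1.5-fold limit, and 0.956% of all genes measured there were lower. With quantile scaling the change was −0.62 and with the 75th percentile of detected probes −0.61, both past the limit, and with normexp background on all spots it was −1.21. At 30 min it was −0.40, and at 45 and 60 min −0.09 and −0.11, within the spot noise. Slc3a1, the heavy chain of cystine and dibasic amino acid transport, went the other way by less. Its levels were −2.97, −2.69, −2.78, −2.70 and −2.66, with the 4 later arrays above the 0 min array by 0.19 to 0.31. With normexp background its change was 1.10 at 15 min and −0.10 at 60 min, so the direction at 60 min depends on the background correction.

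Among the light chains Slc7a5 stood out on 1 array. It codes for LAT1, the carrier of leucine and other large neutral amino acids. Its levels were 0.80, 0.69, 0.48, 1.43 and 0.48 in order of time (chromosome 19, 52121389 to 52121448, minus strand). The 45 min array was above the other 4, which lay between 0.48 and 0.80. Its change was 0.63 at 45 min, a 1.55-fold higher level than at 0 min, and 1.39% of all genes were higher. With normexp background it was 0.54, inside the limit. Against 30 min the 45 min level was 1.93-fold higher, a step that 0.147% of genes exceeded, and the 60 min level was 1.93-fold lower than that at 45 min, which 0.537% of genes went below. Slc7a5 was also the only member 1.5-fold higher at 45 than at 15 min, where 1.4% of all genes were. The same step from 30 to 45 min was passed by 0.769% of all genes, and 4.31% were 1.5-fold lower at 60 than at 45 min. The gene has a single probe with 1 spot, so the 45 min value rests on 1 spot.

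The other light chains were nearer to 0. Slc7a7, which carries cationic amino acids out of cells, had levels of −0.02, −0.22, −0.02, 0.08 and −0.17. Slc7a9, the partner of Slc3a1, had levels of −2.20, −1.99, −1.80, −2.02 and −2.29, highest at 30 min. Slc7a11, the cystine and glutamate exchanger xCT, was well above background only at 45 and 60 min, with levels of −4.27 and −4.38. The bounds against 0 min came to 0.45 and 0.34 in log2, and they use its own dim 0 min signal. Slc7a6 and Slc7a10 were detected only at 60 min, 1.90-fold and 2.02-fold above their dim 0 min signals by the same kind of bound. This is no strict lower limit, as Slc6a4 was not well above background at −4.25 on the 0 min array. The 15 min signal of Slc7a6, also not well above background, stood at −4.06 against −4.21 at 60 min. The 60 min array was the one with the highest share of spots detected, 56.5%.

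Cationic carriers showed that 2 probes of a gene can agree or part. Slc7a1, the arginine and lysine carrier CAT-1, had levels of 2.15, 1.90, 1.90, 2.31 and 2.27 by its brightest probe (chromosome 12, 7253391 to 7253451). A second probe read −1.43, −1.92, −1.69, −1.42 and −1.13. By both, the 15 and 30 min arrays were the 2 lowest of the 5, at −0.25 and −0.25 by the brightest probe and −0.49 and −0.26 by the second; with normexp background on all spots the brightest probe gave −0.69 at 15 min. By both, the 45 min level was at or above the 0 min level, at 0.16 and 0.01. Slc7a2, the carrier CAT-2 of liver and muscle, had 2 probes with opposite signs at every time. At 60 min its change was 0.23 by the brightest and −0.48 by the other, so its course is unsettled. Slc7a3 and Slc7a4 were on no array.

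System A was read by 2 probes of Slc38a2, whose carrier takes up alanine and glutamine. Its levels were 4.70, 4.68, 4.55, 4.57 and 4.30 by the brightest probe (chromosome 7, 135365535 to 135365594, minus strand). The second probe, on the same strand at 135370146 to 135370205, read 2.40, 2.16, 2.28, 2.35 and 1.94. Both were lowest at 60 min, at −0.40 and −0.47, and 4.84% and 4.62% of all probes of like 0 min level (within 0.5) were lower. With normexp background the brightest probe gave −0.30 at 60 min, with or without 6 spots of very high local background, but with normexp on all spots it was lowest at 15 min, at −0.69 (−0.05 without the 6 spots, a setting chosen after seeing the data). Slide and time cannot be told apart here. Slc38a3, a system N carrier of glutamine and histidine, stayed within 0.10 of its 0 min level at all times, with levels of 1.87, 1.83, 1.97, 1.89 and 1.82, whereas normexp on all spots gave −0.44 at 15 min. Slc38a6 was between 0.11 and 0.32 by its brightest probe, and a second probe gave −0.16 at 45 min. Slc38a5 was detected at 45 and 60 min alone, with bounds of 0.58 and 0.43 in log2.

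The Slc6a family held the lowest change of the whole set. Slc6a9 codes for the glycine carrier GlyT1. Its levels were −1.21, −1.99, −1.93, −1.49 and −1.41 (chromosome 5, 138330765 to 138333373, a span of 2609 bases where most probes span 60). The 15 and 30 min arrays were the 2 lowest, 1.72-fold and 1.66-fold lower than the 0 min array, and 0.487% and 0.496% of all genes were lower. At 45 and 60 min the change was −0.28 and −0.20. The low values depend on the background correction: with normexp on all spots the 15 min change was 0.25 and that at 30 min −0.38, and with normexp refitted without the 6 spots, a setting chosen after seeing the data, they were −0.42 and −0.38. The gene has a single probe with 1 spot.

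Other Slc6a genes moved by less or were seen too seldom. Slc6a12 had levels of −3.50, −3.36, −2.99, −3.27 and −3.24 and was highest at 30 min, at 0.51, where 5.60% of probes of like level were higher. With normexp on all spots it was 1.25 at 15 min, and at 60 min normexp gave −0.18 in place of 0.26. Slc6a6, the taurine carrier, was above its 0 min level at all later times, by 0.08 to 0.30. Slc6a8, the creatine carrier, was between 0.04 and 0.20 by its brightest probe, and at −0.52 at 15 min with normexp on all spots. Slc6a5, a glycine carrier known from the spinal cord, was well above background on all 5 arrays, at 0.40, 0.45, 0.41, 0.20 and 0.47.

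Several Slc6a genes were seen on 1 or 2 arrays alone. Slc6a7, a proline carrier known from brain, was well above background at 0 min only, with a processed signal of 29.3 there and of −3.30 to 2.73 at the other times. Its 0 min level was 2.91-fold to 6.06-fold above the floors of the later arrays, the most at 60 min. These folds are no strict limits, as a Slc6a4 probe with a signal of 17.7 was not well above background at 60 min. Slc6a15, a carrier of branched-chain amino acids and proline, had 39.7 at 30 min and −3.18 to 4.53 at the other times. Its 30 min level was 6.64-fold above the floor of the 0 min array, again no strict limit. Slc6a11, a GABA carrier, was detected at 0 and 60 min, and its dim 45 min signal was 1.70-fold below its 0 min level. Each of these values rests on 1 spot on 1 array. Slc6a4 was detected at 60 min alone, and its dim 0 min signal was higher, so no bound was given.

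**Figure D3:**
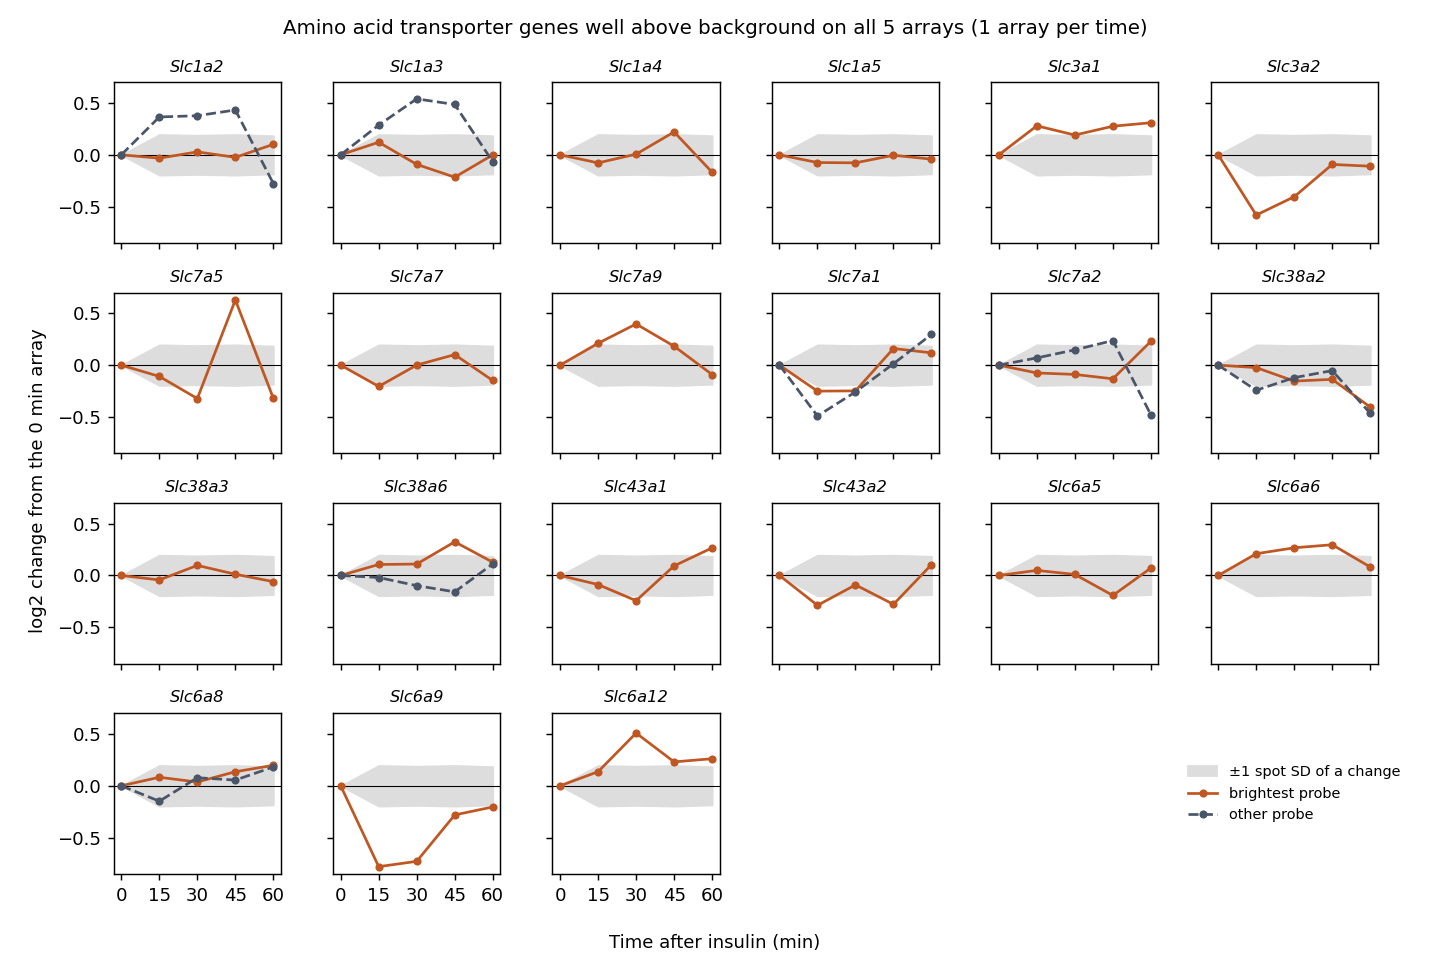
Each panel is 1 of the 21 transporter genes well above background on all 5 arrays, with the log2 change from the 0 min array against time in minutes, its brightest probe as a full line and any second probe so detected as a dashed line, and ±1 technical SD of a change in grey. Slc3a2, Slc6a9 and both probes of Slc7a1 lie below 0 at 15 and 30 min and nearer to or above it at 45 min, and Slc7a5 is high at 45 min alone.

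Slc1a genes code for glutamate carriers and for exchangers of neutral amino acids. Slc1a5, the glutamine exchanger ASCT2, lay within 0.08 of its 0 min level at all times. Slc1a4, the exchanger of alanine, serine and cysteine, had levels of 0.06, −0.02, 0.07, 0.28 and −0.11. Slc1a2, a glutamate carrier known from astrocytes and from liver, stayed between −0.03 and 0.10 by its brightest probe (chromosome 3, 87988361 to 87988420). With normexp on all spots it was at −0.70 at 15 min. Without the 6 spots of very high local background, a setting chosen after seeing the data, it was at −0.07.

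A second Slc1a2 probe was printed at 10 spots and thus has its own technical error. Its level was −2.77 ± 0.21 at 0 min (SD between 10 spots), −2.41 ± 0.24 at 15 min (10), −2.38 ± 0.17 at 30 min (10), −2.32 ± 0.06 at 45 min (9) and −3.06 ± 0.30 at 60 min (9). The spots of 45 min, at −2.46 to −2.26, lay above each of those of 0 min, at −3.18 to −2.48, and of 60 min, at −3.52 to −2.50. Spots of an array share 1 sample, so this is no replicate error of insulin. This probe lies at 87993033 to 87993092, downstream of the other on the plus strand, and the 2 disagreed: at 45 min their changes were 0.43 and −0.02. Probes of like level had a median change of 0.02 there. The second probe of Slc1a3, another glutamate carrier, also read higher than its brightest probe at 30 and 45 min, at 0.54 and 0.49 against −0.09 and −0.22.

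**Figure D4:**
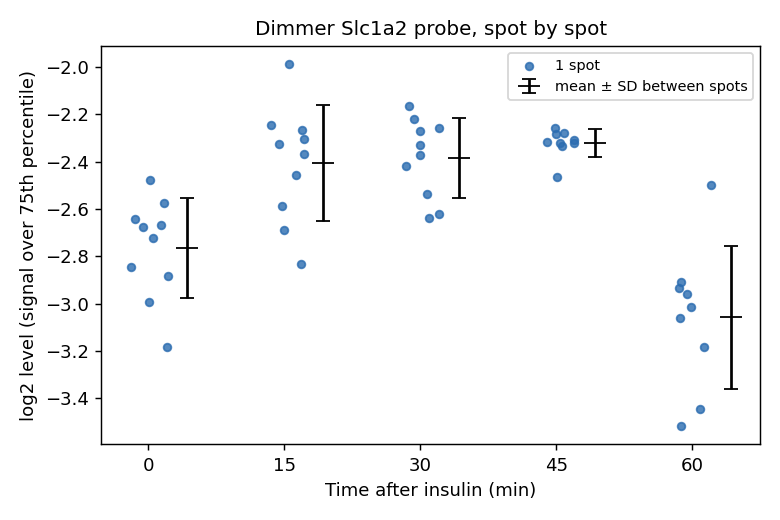
Points are the usable spots of the dimmer Slc1a2 probe on each array, as log2 of signal over the 75th percentile against time in minutes, with the mean ± SD between spots beside them. Levels were −2.41 to −2.32 at 15 to 45 min, above −2.77 at 0 min and −3.06 at 60 min.

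Of the 11 genes with 2 or more probes, 7 had 2 probes well above background on all 5 arrays. In 13 of their 28 comparisons with 0 min the probes differed in sign, and the median gap between them was 0.19, with the largest, 0.71, for Slc7a2 at 60 min. Slc38a2 and Slc7a1 had the same sign by both probes at all 4 times. Of 60 probes with coordinates, 14 spanned more than 61 bases on rn4. Exons and untranslated regions were not assigned.

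**Figure D5:**
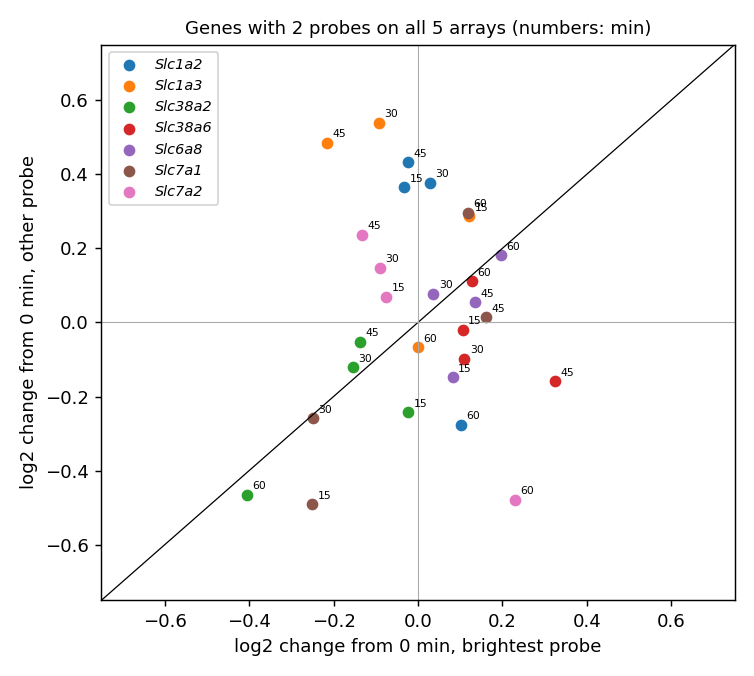
Each point is 1 gene at 1 time (printed in minutes), with the log2 change from 0 min by its brightest probe on the horizontal axis and by its other probe on the vertical axis; the diagonal marks equal changes. Slc38a2 and Slc7a1 keep 1 sign by both probes at each time, whereas Slc7a2, at 0.23 and −0.48 at 60 min, lies in opposite quadrants.

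Slc43a genes are facilitators that let large neutral amino acids pass without sodium. Slc43a1 had levels of 0.26, 0.18, 0.02, 0.36 and 0.53, lowest at 30 min and highest at 60 min. Slc43a2, which codes for LAT4, had levels of −0.67, −0.96, −0.76, −0.95 and −0.57 by its brightest probe. Its changes were −0.29 at 15 min (0.11 with normexp on all spots) and −0.28 at 45 min. A second Slc43a2 probe, well above background on 4 arrays, had the opposite sign at both times, at 0.11 and 0.13. At 60 min the 2 probes gave 0.10 and 0.18. Both genes stayed inside 1.5-fold.

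Whether any member followed a straight line over the hour was asked with limma, over 5 arrays. None of the 21 members passed a 5% false discovery rate (lowest adjusted p = 0.468), where 0.024% of 16694 genes did, 4 in all. At an unadjusted p of 0.05, 1 member passed, against 10% of all genes. This was Slc38a2, with a slope of −0.37 ± 0.15 per hour (SE) and a limma adjusted p of 0.468. Without the 60 min array the slope was −0.22 with a limma adjusted p of 0.707. With normexp on all spots its slope was −0.003, and with the mean over detected probes −0.33.

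The genes around amino acid use were read from lists. Of 25 measured genes of the amino acid response, which ATF4 drives, 1 was 1.5-fold lower at 15 min, 1 higher at 30 min, 1 higher at 45 min, and 5 higher and 1 lower at 60 min. Of all genes, 0.921% were so much lower at 15 min, 1.14% and 1.7% higher at 30 and 45 min, and 3.41% higher and 3.82% lower at 60 min. The list's median was −0.17, −0.13, 0.18 and 0.12 at 15, 30, 45 and 60 min, with 4, 5, 20 and 17 of 25 above 0, against 57.9%, 55.0%, 54.8% and 51.9% of all genes. Hepatocyte markers had 13 of 15 above 0 at 45 min, with a median of 0.13, and the measured markers of other liver cells had 0 of 5 above 0 at 60 min, with a median of −0.45 and 2 lower by 1.5-fold. Their part in the list's values was not tested. The ATF4 target past 1.5-fold at 15, 30 and 45 min was Atf3, an immediate early gene as well, at −1.42, 1.88 and 1.71. Chac1, which breaks down glutathione, was at −0.67 at 60 min, Cebpb, a partner of ATF4, at 0.66, and Trib3, a pseudokinase that restrains ATF4, at −0.32 at 30 min and 0.54 at 45 min.

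Carriers outside the gene names above gave no 1.5-fold change among 9 measured members at any time. Of all genes, 1.08%, 1.14%, 1.7% and 3.41% were so much higher at 15, 30, 45 and 60 min. So much lower were 0.921%, 0.945%, 1.09% and 3.82%, and these shares stand beside the next lists too. All 9 carriers were above 0 at 60 min, against 51.9% of all genes, on the array that lay alone on its slide. Slc25a20, among the 9 and at 0.24 at 60 min, carries carnitine esters and not amino acids. The 9 were at 0.03 to 0.57, the highest being Slc16a10, the carrier of aromatic amino acids. Sfxn1, a mitochondrial serine carrier, was at −0.30 at 30 min and 0.17 at 60 min, and Slc25a22, a mitochondrial glutamate carrier, at 0.43 at 60 min. Of 17 to 19 measured genes of amino acid sensing and mTORC1 none differed by 1.5-fold at any time, and Tsc1, an inhibitor of mTORC1, had changes of −0.43, −0.28, −0.42 and 0.32. Tsc1 was dim, with a level of −3.44 at 0 min. Among 31 or 32 measured genes of amino acid breakdown only Gnmt, which methylates glycine, passed 1.5-fold, at 0.61 at 45 min. Gnmt was dim, with a level of −3.81 at 0 min. Mat1a, which makes S-adenosylmethionine in liver, was at −0.38 at 15 and at 30 min. The median of this list lay between 0.01 and 0.05 at all 4 times.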

How the data were processed

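Total RNA of 5 samples, grouped by the time in their titles, was measured on 5 1-colour arrays of design 014879. Per the file headers, the authors deposited scanner intensity from Agilent Feature Extraction 9.5.3.1, with a spatially fitted background subtracted and a multiplicative trend corrected, annotated on rn4. The authors' deposited series matrix is in log2, with no step named for it. Its columns match log2 of signal over the 75th percentile, centred on each probe's median (correlation 0.9993 to 0.9999 across 19746 probes; column medians 0), and its choice of probes is unknown.

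Control and outlier spots (100 to 163 non-control spots per array) were left out, spots of a probe averaged, the signal divided by the 75th percentile of the array, floored at the lowest signal well above background, and log2 taken. A probe counted as well above background if more than 50% of its usable spots were flagged so. A change needs both arrays well above background. Where only 1 was, a bound was set against the higher of the dim signal and the floor. Such a bound is no strict limit, as signals above the floor were not always detected. Trends were fitted with limma 3.58.1 (R 4.3.3; 3 residual degrees of freedom), and fit and counts were tested on simulated data. All 62 probes kept their symbol in RefSeq (GRCr8), 48 by accession and 14 by symbol.

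The members, the gene lists and the rule for named genes were chosen with earlier results of these data known. That rule takes every member 1.5-fold different by change or bound, 31 further names whatever their change (a few not on the array), and of each list up to 4 genes with the largest mean absolute change. Beyond it, members were named to give their detection or level, and these were chosen after their values were seen. The number of arrays limits the precision.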

Additional observations from a re-analysis of the deposited data

How the results depend on the processing

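With main counts of 1, 1, 1 and 0 members 1.5-fold different at 15, 30, 45 and 60 min, normexp on all spots gave 8 at 15 min and 0 at 30 and 45 min. Normexp refitted without 6 spots gave 1 at 15 min and 0 at 30 and 45 min. The 1 was not Slc6a9, the main setting's only member there, which the refit put inside 1.5-fold. Both the 75th percentile of detected probes and quantile scaling gave 2 at 15 min. With no filter on dim genes the counts were 3, 5, 4 and 3, and the members' medians 0.16, 0.32 and −0.19 at 15, 30 and 60 min. By construction that setting puts undetected genes at the floor of each array, which moved the median of all genes by 0.13, 0.20, 0.16 and −0.28. A 2-fold threshold gave 0 at 15, 30 and 45 min, and the 15 min array as the start gave 0 at 30 min. The change of Slc6a9 had the opposite sign at 15 min with normexp on all spots (0.25). Against the 15 min array its 30 min change was 0.052, also of opposite sign. That is another comparison, since in the main setting both arrays lay below the 0 min level. The cause of the normexp differences was not tested. The count of members with a linear trend was 0 under each of the 12 alternatives run, while that of all genes was 0 to 25 against 4, the 25 without the 0 min array. Of 73 changes of named genes, 15 moved by more than the spot noise with normexp on all spots besides Slc6a9 at 15 min, 5 with the refit, 6 with the mean over detected probes, and none with either scaling, no filter or the series matrix, which held 72. No filter could not alter these changes or their signs, as all were already well above background on both arrays. The series matrix is on nearly the same scale as the main setting, so neither is an independent check. Against the 15 min array, 20 of 54 moved besides Slc6a9 at 30 min. Any change of sign, however small, was seen in 9 with normexp, 5 with the refit, 9 with the mean over probes, 4 with the 75th percentile of detected probes, 3 with quantile scaling, 1 in the series matrix, 0 with no filter, and 17 of 54 against the 15 min array. The refit, and a count over all member probes, which gave 1, 1, 1 and 0, were chosen after seeing the data. No paired analysis was possible because each time has 1 array. Dim genes are limited by signal over background.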
